A study of Rattus norvegicus with 6 samples.

Results

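Transcripts of pre-mRNA splicing factors and heterogeneous nuclear ribonucleoproteins (hnRNPs) were compared in 2 kinds of rat pluripotent cell, embryonic stem (ES) cells and flat pluripotent stem (fPS) cells. Members were all probe sets whose single gene symbol began with Srsf, Hnrnp, Sf3a, Sf3b, Snrp, Prpf, Rbfox or Esrp, leaving out the imprinted gene Snrpn. This gave 104 of 31042 probe sets and 61 of 14217 genes, each gene being read from whichever of its probe sets had the highest mean across the 6 arrays. The 61 genes were 9 of the Snrp family, 9 of the Sf3 family, 11 Prpf, 11 Srsf, 17 Hnrnp and 3 Rbfox genes and Esrp1. One of the Srsf entries, Srsf7-ps4, is a pseudogene. A further 6 probe sets listed a symbol that matches the rule beside another symbol and were assigned to no gene.

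Total RNA from Sprague-Dawley cells was hybridised to Affymetrix 3' expression arrays, with 3 arrays of ES cells and 3 of fPS cells. Both groups share 1 set of protocols: a medium supplemented with N2, B27 and 10 ng/ml human LIF, 3 μM of the GSK3 inhibitor CHIR99021 and 0.5 μM of the MEK inhibitor PD0325901, and maintenance on mitomycin C-treated mouse embryonic fibroblasts in medium with 15% serum. No genotype or number of lines is given, and nothing in the labels ties the samples to separate cultures. The p-values therefore reflect only how far these samples scatter, which may be technical. The title and cell type of 3 samples read fPS cells, although their description field reads ES cells. Of 20 listed markers of pluripotent cells 11 were measured and 0 passed the limma test between groups, with a median log2 difference of -0.27 (fPS minus ES). The groups lay wholly lower in fPS cells for 2 (Sox2 and Lin28a) and wholly higher for 1 (Klf5), beside 11.3% of all genes each way. The mean log2 level of the 11 was 9.30 to 10.37 over the 6 arrays. Sox2 had intensities of 3427, 3266 and 4618 on the ES arrays against 2838, 1856 and 1281 on the fPS arrays.

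Splicing removes introns from pre-mRNA. It is carried out by the spliceosome, which is built from small nuclear ribonucleoproteins (snRNPs) that recognise the splice sites and pair with each other as the reaction proceeds. SR proteins, which carry arginine- and serine-rich tails, mostly promote the use of an exon, hnRNP proteins often oppose it, and both classes are abundant in dividing cells. Rbfox and Esrp proteins are tissue-restricted regulators, typical of neurons and muscle and of epithelia, respectively, and the balance of isoforms they set is known to shift when pluripotent cells differentiate.

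The data were uneven between arrays. The median intensity ran from 37.6 to 38.7 on the ES arrays against from 36.2 to 45.3 on the fPS arrays, with the lowest value on fPS replicate 3, and the mean after trimming was also lowest there, at 145 against 160 to 199 elsewhere, the highest being on ES replicate 3. The ratio of 3' to 5' signal of β-actin, a measure of RNA integrity and labelling, was 2.06 to 4.37 and was highest on fPS replicate 2, while the same ratio of GAPDH was 0.956 to 1.01 and lowest there. All values below are differences of log2(intensity + 16), fPS minus ES, tested with limma across all probe sets with Benjamini-Hochberg adjustment and a threshold of 0.05.

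None of the 61 genes passed this test, where 0.858% of all genes did. The smallest adjusted p of a member was 0.133. At an unadjusted p under 0.05 there were 5 members lower and 0 higher in fPS cells, against 8.88% and 8.59% of all genes. The differences leaned to the negative side: 42 of 61 were below 0, where 50% of all genes were, and 56.6% of brighter genes, meaning those whose mean was at or above the median of all probe sets. Their median was -0.17 (quartiles -0.43 and 0.050), beside 0.00084 for the other 14156 genes and -0.070 for the brighter ones among them. In 10 members all fPS arrays lay below all ES arrays and in 0 they lay above, where 11.3% of all genes lay below, 15.7% of brighter genes did so, and 11.3% of all genes lay above. The 10 were Hnrnpa0, Hnrnpa1, Hnrnpa3, Hnrnpl, Hnrnpr, Srsf9, Srsf10, Prpf18, Sf3b4 and Snrpb. For 38 of 61 genes the 95% interval of the difference, taken gene by gene, lay wholly within a 2-fold change either way. It did so for 8864 of all 14217 genes, so the members were near the share of all genes. For the other 23 members these arrays do not bound the change to that size. The median of the members was -0.024 without fPS replicate 3 and -0.031 after quantile normalization, with 32 and 33 of 61 differences below 0.

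**Figure D1:**
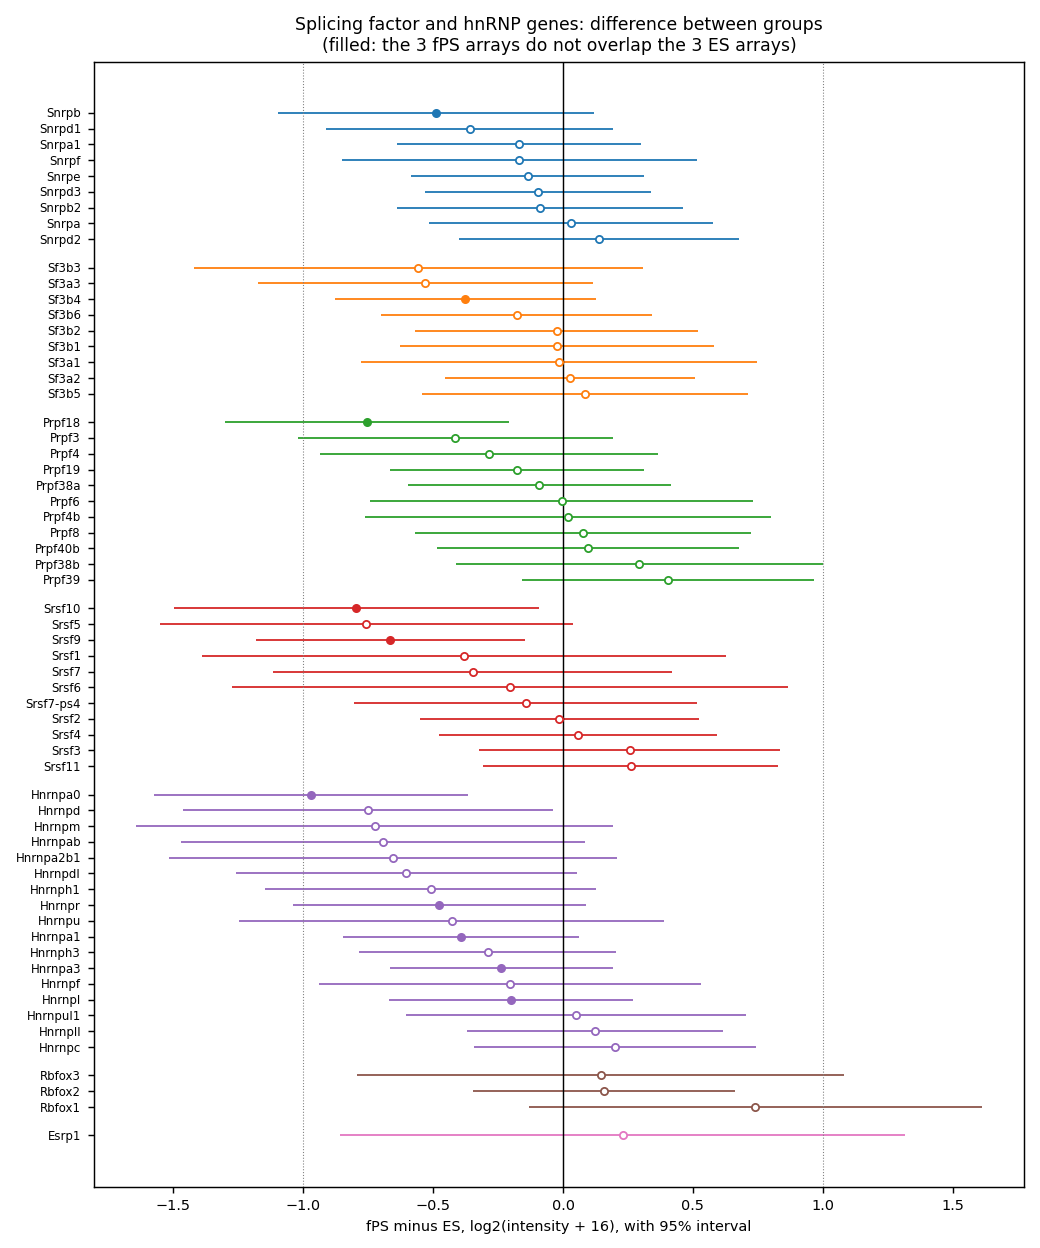
Difference between fPS and ES cells in log2(intensity + 16) for each of the 61 member genes, grouped by family, with the 95% interval from limma; filled points mark genes whose 3 fPS arrays do not overlap the 3 ES arrays, and dotted lines mark a 2-fold change. All 10 filled points lie left of 0, and the intervals of most genes cross it.

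The hnRNP genes had the lowest median of the 5 families with more than 3 genes, -0.43, with 14 of 17 differences below 0 and 7 of them beyond -0.5. Among all 14217 genes 7110 were below 0 and 1826 beyond -0.5, and among the 9043 brighter genes outside the list 5114 and 1571. None of the 17 passed. Hnrnpa0, which encodes a small RNA-binding protein of the A/B group, had the largest difference of all members. It had intensities of 3551, 3409 and 3893 on the ES arrays against 2590, 1786 and 1339 on the fPS arrays. Every fPS array thus lay below every ES array, and the log2 difference was -0.97 (SE 0.265, 95% interval -1.57 to -0.37, adjusted p = 0.133). Over the alternatives that were tried it ran from -1.22 to -0.74, with an adjusted p of 0.0562 to 0.388.

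The hnRNP whose difference was most positive was Hnrnpc, a protein that binds uridine tracts in nascent transcripts. It had 4345, 3353 and 5698 on the ES arrays against 4988, 5075 and 4994 on the fPS arrays. The fPS values were close together and lay inside the ES range (log2 difference 0.20, SE 0.239, adjusted p = 0.762). The upstream sequences of both genes are shown because they mark the ends of the range within the family. They are the 250 bases before the start site in RefSeq on GRCr8, Hnrnpa0 at chr17:6512879-6513128 on the + strand and Hnrnpc at chr15:27282716-27282965 on the - strand. Capitals mark a CCAAT box (CCAAT) or a GC box (GGGCGG) on either strand.
Hnrnpa0: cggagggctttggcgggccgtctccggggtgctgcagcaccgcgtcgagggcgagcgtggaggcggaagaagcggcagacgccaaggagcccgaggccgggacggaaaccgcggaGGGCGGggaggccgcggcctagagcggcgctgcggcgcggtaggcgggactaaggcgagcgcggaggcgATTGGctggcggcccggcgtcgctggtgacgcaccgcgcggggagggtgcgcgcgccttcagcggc
Hnrnpc: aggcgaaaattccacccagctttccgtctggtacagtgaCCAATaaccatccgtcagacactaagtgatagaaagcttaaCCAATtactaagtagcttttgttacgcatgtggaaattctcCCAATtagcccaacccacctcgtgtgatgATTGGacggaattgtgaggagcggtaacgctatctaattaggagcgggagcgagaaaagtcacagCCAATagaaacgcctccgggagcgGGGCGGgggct

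The 2 sequences differ in base composition, with 77.2% G and C upstream of Hnrnpa0 and 49.6% upstream of Hnrnpc. Hnrnpa0 held 1 CCAAT box and Hnrnpc 5, and each held 1 GC box. Upstream sequences were at hand for 55 of the 61 genes, 16 of them hnRNP genes. Of the 16, 12 held a CCAAT box and 13 a GC box, and of the 55, 26 and 31 did, beside 34.3% and 32.4% of all 27457 sequences of the same length. The median share of G and C was 61.4% for the 16, 58.4% for the 55 and 52% for all sequences. The motif counts were not adjusted for base composition. The ETS motif CCGGAAG was found in 16 of 55 members and in 2 of the 16 hnRNP genes, beside 7.74% of all, and the TATA box TATAAA in 5 of 55 and 3 of 16, beside 13.1%. The motifs were sought on both strands, and none of the 4 contains another. A match is a description of the letters and not a site of binding.

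Hnrnpa1, a repressor of exon inclusion and among the best known of the family, had 5821, 5803 and 6024 on the ES arrays against 5042, 4506 and 3947 on the fPS arrays. The groups did not overlap, and the log2 difference was -0.39 (SE 0.199, adjusted p = 0.401). Hnrnpa3, a close relative of Hnrnpa1, had 8263, 8423 and 9061 against 7318, 7344 and 7147, again with no overlap, for a difference of -0.24 (SE 0.188, adjusted p = 0.613). Both groups of values are tight for this gene, and the shift is small. Hnrnpd, the protein AUF1 that binds AU-rich elements, had 1490, 1512 and 2080 against 1496, 981 and 657, so that fPS replicate 1 stood at the level of the lower ES arrays (difference -0.75, adjusted p = 0.296).

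On the brightest probe set of several hnRNP genes the negative difference came mainly with 1 array. Hnrnpm, a splicing regulator that can oppose Esrp proteins, had 1756, 1661 and 2214 on the ES arrays against 1709, 1504 and 544 on the fPS arrays. Hnrnpa2b1, which binds RNA and takes part in its transport, had 3375, 3087 and 2889 against 2976, 2538 and 1007. Hnrnpu, a scaffold protein of the nucleus, had 4217, 3429 and 5546 against 4515, 3982 and 1822. On these probe sets fPS replicate 3 was far below the other fPS arrays, which lay at or near the ES range. The log2 differences were -0.72, -0.66 and -0.43, with SE of 0.404, 0.379 and 0.360. Further probe sets did not all show this. Hnrnpu 1372823_at had 409, 345 and 681 against 277, 287 and 256, without overlap (difference -0.72). Its groups overlapped on 1370171_at, again lowest on fPS replicate 3. Hnrnpa2b1 1378543_at had 297, 296 and 268 against 182, 118 and 73.2 (difference -1.18). The groups did not overlap there or on 1395561_at, given below, but did on 1373540_at. Without fPS replicate 3 the median over the 17 hnRNP genes was -0.23, and over all alternatives it stayed below 0, from -0.60 without fPS replicate 1 to -0.16 without the third array of both groups.

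**Figure D2:**
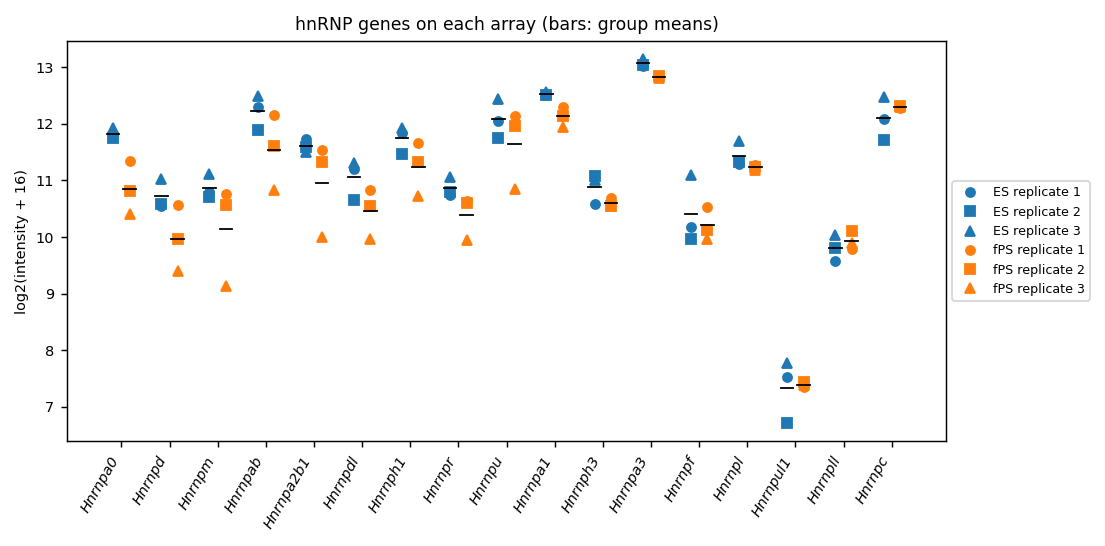
Log2(intensity + 16) of the 17 hnRNP genes on each of the 6 arrays, ES in blue and fPS in orange, with marker shapes for the replicates and bars for the group means; genes are ordered by their difference. The triangle of fPS replicate 3 is the lowest of the 6 points in 14 of 17 genes.

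Among the SR protein genes the median was -0.20, with 8 of 11 differences below 0, 0 past the threshold and 3 beyond -0.5. Of all 14217 genes 7110 were below 0 and 1826 beyond -0.5. Srsf10, a splicing regulator that acts as a repressor when dephosphorylated, had 1008, 795 and 1454 on the ES arrays against 760, 687 and 412 on the fPS arrays. The groups did not overlap, although the lowest ES and the highest fPS values were close (difference -0.79, SE 0.309, 95% interval -1.50 to -0.092, adjusted p = 0.264). Srsf9, a short SR protein, had 629, 742 and 854 against 548, 381 and 461, also without overlap and with fPS replicate 2 lowest, for a difference of -0.66 (SE 0.227, adjusted p = 0.208). Srsf5 had 2026, 1961 and 3039 against 2064, 1460 and 815, so that the groups overlapped (difference -0.76, SE 0.349, adjusted p = 0.349).

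The founding SR proteins did not stand apart. Srsf1, also known as SF2 or ASF, had 1615, 1263 and 2400 on the ES arrays against 1972, 1799 and 618 on the fPS arrays, with the lowest value on fPS replicate 3 (difference -0.38, 95% interval -1.39 to 0.63). Srsf2, known as SC35, had 4178, 3900 and 6079 against 4641, 5014 and 4136, with a difference of -0.014 (95% interval -0.55 to 0.52) whose sign turned after quantile normalization, to 0.14. The most positive SR protein was Srsf11, a partner of the U2 auxiliary factor, with 1389, 1452 and 2069 against 2207, 2132 and 1531 (difference 0.26, 95% interval -0.31 to 0.83, adjusted p = 0.693). Srsf3 and Srsf7 were represented by dim probe sets, with intensities of 46.0 to 97.0 and 32.2 to 100.2. The probe set of Srsf3 had a difference of 0.26 (adjusted p = 0.703). A pair of probe sets lists Srsf3 beside LOC100910660, so that neither was assigned to it. The first had 4476, 3935 and 4684 on the ES arrays against 3024, 2118 and 2013 on the fPS arrays (difference -0.89, SE 0.230, adjusted p = 0.115). The other had 327, 242 and 275 against 95.4, 70.6 and 146 (difference -1.35, SE 0.270, adjusted p = 0.0607). Both had groups that did not overlap, on the other side of 0 from the probe set that carries the symbol alone, and neither passed.

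**Figure D3:**
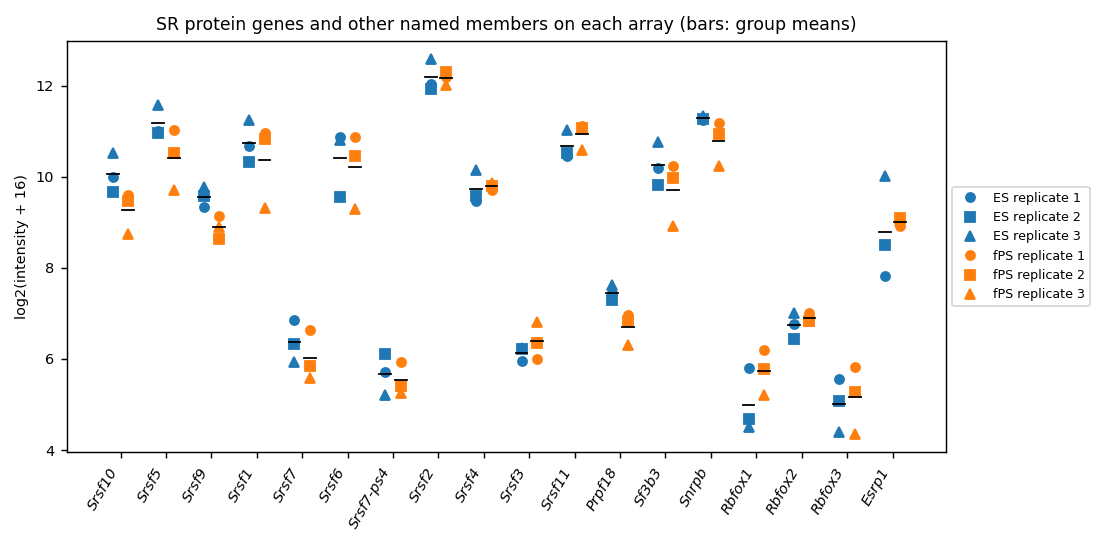
Log2(intensity + 16) on each of the 6 arrays for the 11 SR protein entries, followed by Prpf18, Sf3b3, Snrpb, the Rbfox genes and Esrp1, ES in blue and fPS in orange, with bars for group means. Only Srsf10, Srsf9, Prpf18 and Snrpb among the genes drawn have groups that do not overlap, and Esrp1 is widely spread on the ES arrays.

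Most genes of the core of the spliceosome had small differences. Of the 9 Snrp genes, which encode Sm ring proteins and proteins of the U1 and U2 snRNPs, 0 passed and the median was -0.14. Of the 9, 7 were within 0.25 of 0, where 6571 of all 14217 genes were. Snrpb, which encodes the Sm proteins B and B', had the largest difference, with 2394, 2439 and 2574 on the ES arrays against 2307, 1953 and 1196 on the fPS arrays. The groups did not overlap, but fPS replicate 1 was just under the ES arrays (difference -0.49, SE 0.268, adjusted p = 0.441). Snrpe, another Sm ring protein, had 5647, 5488 and 5125 against 4823, 5521 and 4487 (difference -0.14, 95% interval -0.59 to 0.31). For 8 of the 9 Snrp genes the 95% interval lay within a 2-fold change, where it did for 8864 of all 14217 genes.

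The SF3a and SF3b complexes are the part of the U2 snRNP that holds the branch point. Their 9 genes had a median of -0.024, and 0 passed. Sf3b1, the large scaffold of SF3b, had 1813, 1635 and 2774 on the ES arrays against 2059, 2358 and 1619 on the fPS arrays, a difference of -0.022 (95% interval -0.63 to 0.58). Sf3b3 had the largest difference of the family, -0.56 (SE 0.380, adjusted p = 0.548), with 1157, 889 and 1722 against 1189, 985 and 465, so that the groups overlapped and fPS replicate 3 alone lay below the ES range. Without fPS replicate 3 the difference was -0.16. Sf3b6, which contacts the branch point, had 3350, 3242 and 2455 against 2954, 2860 and 2172 (difference -0.18, adjusted p = 0.784). Sf3b4, which binds upstream of the branch point, had 616, 624 and 885 against 534, 565 and 506, without overlap (difference -0.38, SE 0.220, adjusted p = 0.475).

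The Prpf genes encode proteins of the U4/U6.U5 tri-snRNP and of other steps of splicing. Of 11 genes 0 passed, and the median was -0.0043 with 6 below 0, where 50% of all genes were. Prpf8, the scaffold of the catalytic centre, had 869, 923 and 1669 on the ES arrays against 1075, 1356 and 1082 on the fPS arrays (difference 0.077, 95% interval -0.57 to 0.72). Prpf18, a factor of the second catalytic step, had 158, 141 and 180 against 109, 97.7 and 62.5. All fPS arrays lay below all ES arrays, and the difference was -0.75 (SE 0.240, 95% interval -1.30 to -0.21, adjusted p = 0.181). Prpf39, a protein of the U1 snRNP, was the most positive Prpf gene, with 588, 525 and 896 against 837, 953 and 820 (difference 0.41, SE 0.247, adjusted p = 0.494).

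The tissue-restricted regulators did not pass either. In bulk samples fewer cells of a type and less RNA per cell cannot be told apart. Esrp1, the epithelial splicing regulator, had 210, 348 and 1014 on the ES arrays against 466, 531 and 502 on the fPS arrays. The spread lay on the ES side, where replicate 3 was above and replicates 1 and 2 were below all fPS values (difference 0.23, 95% interval -0.86 to 1.32, adjusted p = 0.883). The sign turned when ES replicate 1 was left out (-0.25), and without ES replicate 3 the difference was 0.84 (adjusted p = 0.216). The adhesion protein E-cadherin (Cdh1), an epithelial marker, was likewise highest on ES replicate 3, with 1873, 1697 and 4423 against 2749, 3094 and 2772. So were the markers Epcam, Ocln, Tjp3 and Rab25, while the remaining epithelial markers were highest on other arrays. Krt18 was lowest on ES replicate 3, with 1600, 1429 and 891 against 2338, 1637 and 1313. Over the 16 measured epithelial markers the mean log2 level was 8.39, 8.41 and 8.71 on the ES arrays against 8.84, 8.64 and 8.62 on the fPS arrays. Of the 16, 1 gene passed, Cldn4 (difference 2.31, adjusted p = 0.0332), where 0.858% of all genes did. The fPS arrays lay wholly below the ES arrays for 2 of the 16 and wholly above for 2, beside 11.3% of all genes each way.

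Rbfox2, the member of its family that is widely expressed and active in stem cells, had 93.4, 70.2 and 113 on the ES arrays against 113, 98.3 and 98.0 on the fPS arrays, a difference of 0.16 (95% interval -0.35 to 0.66). Rbfox1 and Rbfox3, known from neurons, were dim. Rbfox1 had 39.5, 9.66 and 6.73 against 57.8, 39.0 and 21.2 (difference 0.74, SE 0.383, adjusted p = 0.412), and Rbfox3 had 30.9, 17.7 and 5.18 against 40.8, 22.8 and 4.50. The groups overlapped for both. At such intensities the added 16 shrinks a fold change, and the difference of Rbfox1 was 1.32 with a pseudocount of 1, where it did not pass either. That was the highest value over the alternatives, and the lowest was 0.30. Of 17 markers of neural cells 0 passed, and their median log2 difference was 0.033. Among them 8 stayed under an intensity of 50 on all arrays, Snap25 included. In 5 the fPS arrays lay wholly below the ES arrays and in 1, Pax6 (difference 0.51), wholly above, beside 11.3% of all genes each way. Pax6 was also dim, with 3.94, 4.16 and 8.32 against 21.2, 11.5 and 11.3 (adjusted p = 0.319). The 5 include Stmn2, at 2747, 2182 and 1831 against 1380, 1229 and 1195, and Tubb3 and Nefl, with differences of -1.05 and -2.49 (adjusted p = 0.176 and 0.163). Their part in the Rbfox values was not tested.

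Among the 6 arrays, 2 held most of the members' extremes. Of the 61 genes, 37 had their lowest value on fPS replicate 3, where 29.5% of all genes and 37% of brighter genes did. ES replicate 3 held the highest value of 39 members, where it did for 28.1% of all genes and 38.7% of brighter genes. The median deviation of the members from their own means was 0.12, -0.011 and 0.36 on the ES arrays against 0.092, 0.027 and -0.33 on the fPS arrays, beside -0.0077, -0.044, 0.18, 0.092, -0.0027 and -0.17 for the brighter genes outside the list, in the same order. On these 2 arrays the members thus deviated in the same direction as brighter genes in general, and further. The brighter genes start at a mean log2 of 5.73, and many members lay far above that. The sets were not matched in level, so the further deviation is not shown to be particular to the members. For hnRNP genes the value on fPS replicate 3 was -0.68, and for Snrp genes it was -0.22.

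**Figure D4:**
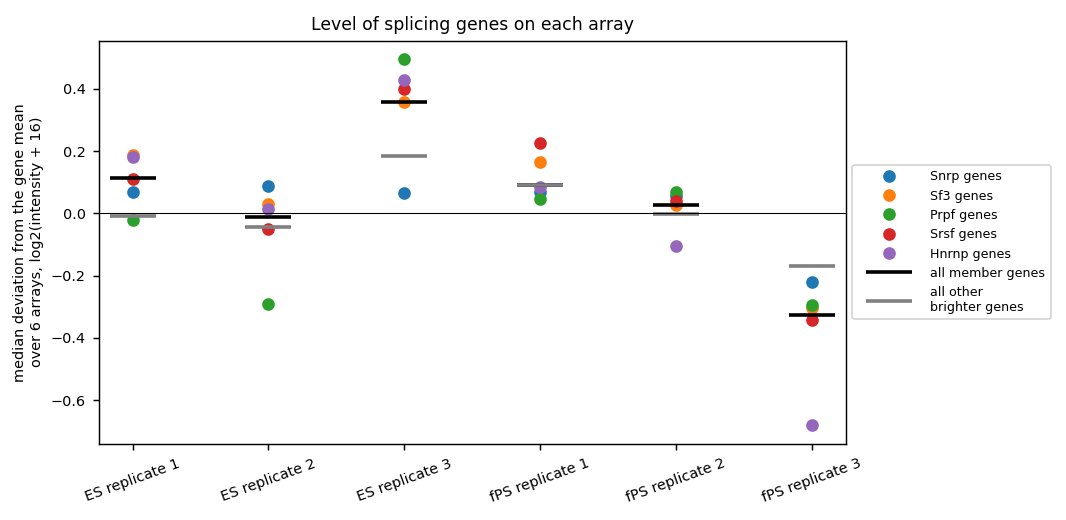
Median deviation of genes from their own mean over the 6 arrays, in log2(intensity + 16), for 5 member families (points), for all 61 members (black bars) and for all other brighter genes (grey bars). The hnRNP genes reach -0.68 on fPS replicate 3, and the Prpf genes 0.50 on ES replicate 3.

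These 2 arrays also had the highest levels of fibroblast collagens, the feeder cell type being mouse fibroblasts. Averaged over 8 collagen genes, the log2 level was 5.64, 6.34 and 7.70 on the ES arrays against 6.62, 6.35 and 7.40 on the fPS arrays, and that of all 21 fibroblast markers ran from 5.52 to 6.75 in ES and from 6.19 to 6.78 in fPS cells, with 8 of the 21 under an intensity of 50 on all arrays. The members were highest on ES replicate 3 and lowest on fPS replicate 3. The part of feeder cells in the values of the members was not tested. With the collagen level as a covariate the median of the members was -0.12 and that of the hnRNP genes -0.41. With both arrays left out, 31 of 61 members were below 0, the median was -0.027, and 0 passed.

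No difference between probe sets of the same member gene passed a test. Of the 61 genes 22 had more than 1 probe set, giving 43 further probe sets to compare with the brightest one of the same gene. In 10 of the 22 genes at least 1 further probe set had the opposite sign, where 45% of all genes with several probe sets did. By probe set, 11 of 43 had the opposite sign, where 37.3% of all such pairs did. The difference between bright probe sets of 1 gene within an array hardly depends on the scaling of the array, whereas for dim ones the added 16 makes it do so. Tested with limma over all 6609 such pairs, 0 of the 43 passed, where 1.01% of all pairs did, and 2 had an unadjusted p under 0.05. The widest was Prpf18. Its second probe set had 53.8, 70.6 and 90.2 on the ES arrays against 113, 92.7 and 42.3 on the fPS arrays, so that its groups overlapped and its difference was 0.12 where the first had -0.75. The gap between them was 0.87 (95% interval 0.25 to 1.49, adjusted p = 0.181).

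Hnrnpa1 had 3 probe sets, whose differences ran from -0.73 to 0.14. The 1375612_at probe set had 1641, 1921 and 2160 on the ES arrays against 905, 1306 and 1253 on the fPS arrays, without overlap, for a difference of -0.73 (SE 0.231, adjusted p = 0.181). The 1372693_at probe set had 2380, 2287 and 2187 against 2472, 2819 and 2277, for 0.14 (SE 0.197, adjusted p = 0.812). The brightest, described above, lay between them at -0.39, and its gap to 1372693_at was 0.53 (95% interval -0.036 to 1.10, adjusted p = 0.384) and to 1375612_at -0.33 (SE 0.298, adjusted p = 0.685). Hnrnpa1 has near-identical processed copies in mammalian genomes, so what each probe set binds is uncertain. Hnrnpa3 had 5 probe sets, 4 with negative differences and 1 with 0.19, and the most negative, 1388119_at, had 5098, 5041 and 5570 against 3436, 3030 and 3839 (difference -0.61, adjusted p = 0.192).

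For Hnrnpa2b1 and Srsf10 the probe sets had 1 sign. All 4 of Hnrnpa2b1 were negative, from -1.34 to -0.42. The most negative, 1395561_at, had 918, 995 and 1353 on the ES arrays against 645, 354 and 308 on the fPS arrays. Its groups did not overlap, in contrast to the brightest probe set of the gene, and its adjusted p of 0.0868 was the lowest of any of the 104 probe sets. All 5 of Srsf10 were negative, from -1.16 to -0.39, with no overlap in 2 of them. The 6 probe sets of Rbfox1 were all dim, with differences from -0.061 to 0.74.

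**Figure D5:**
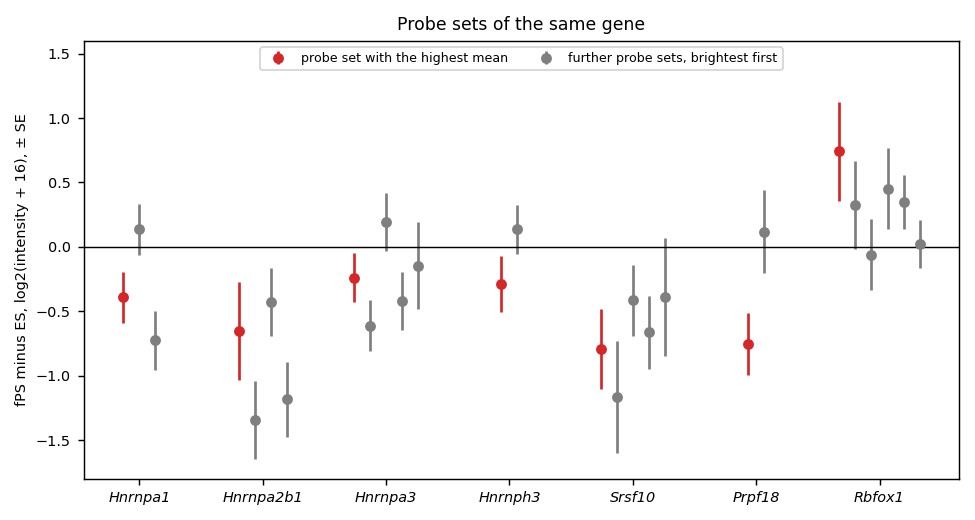
Difference between fPS and ES cells in log2(intensity + 16), with its SE, for every probe set of 7 member genes; red marks the probe set with the highest mean, which represents the gene, and grey the others in falling order of mean. Hnrnpa2b1 and Srsf10 lie wholly below 0, while Hnrnpa1, Hnrnpa3, Hnrnph3, Prpf18 and Rbfox1 have probe sets on both sides.

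Other splicing genes were taken from a hand-written list of 146, of which 135 were measured. Of these 0 passed, with 21 lower and 3 higher at an unadjusted p under 0.05, beside 8.88% and 8.59% of all genes. The median was -0.19 with 96 of 135 below 0, beside 50% of all genes and 56.6% of brighter genes. In 24 the fPS arrays lay wholly below and in 7 wholly above the ES arrays, beside 11.3% of all genes each way and 15.7% of brighter genes below. The most negative without overlap was Scaf4, an SR-related factor that binds RNA polymerase II, with 215, 140 and 228 on the ES arrays against 88.1, 47.3 and 33.2 on the fPS arrays (difference -1.59, SE 0.316, adjusted p = 0.0606). Ppih, a cyclophilin of the tri-snRNP, had 1353, 1081 and 882 against 662, 447 and 260 (difference -1.32, SE 0.338, adjusted p = 0.111). Wtap, a subunit of the RNA adenosine methyltransferase, had 1101, 1234 and 1450 against 624, 520 and 782 (difference -0.97, SE 0.231, adjusted p = 0.0938).

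On the positive side, Nsrp1, a nuclear speckle protein, had 147, 246 and 266 on the ES arrays against 436, 922 and 1165 on the fPS arrays (difference 1.79, SE 0.378, adjusted p = 0.0714). Clk3, a kinase that phosphorylates SR proteins, had 91.5, 99.9 and 182 against 228, 263 and 350 (difference 1.11, SE 0.290, adjusted p = 0.117). The groups of both genes lay apart. Srpk3, another SR protein kinase, was dim, with 17.4, 8.64 and 11.4 against 32.1, 19.1 and 23.4 (difference 0.52, adjusted p = 0.311). The count of this list moved with the setting. Scaf4 and Nsrp1 passed without fPS replicate 1 (adjusted p = 0.0490 and 0.0427), where 0.654% of all genes did. When the dimmest 50% of probe sets were left out before the fit, 6 of 131 genes passed, Scaf4, Ppih, Wtap, Nsrp1, Clk3 and Tia1. In that setting 5.56% of all genes passed, so the 6 are near the share of all genes. None of the 61 members passed without fPS replicate 1, and none of the 58 tested without the dimmest 50% did.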

How the data were processed

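Each deposited value is a linear intensity of a probe set on an array, judged from the range. How the authors summarised, background-corrected and scaled these is not given in the sources used here. Of 31099 probe sets 57 controls were left out. By the platform's annotation, 20826 of the others had 1 symbol, 436 several and 9780 none. All 61 members were found by gene identifier in a RefSeq table of GRCr8, with 0 symbols changed. Values were taken as log2(intensity + 16) without further normalization or filter and fitted with limma 3.58.1 in R 4.3.3 (lmFit, eBayes, Benjamini-Hochberg over 31042 probe sets). The fit was tested on simulated data. The number of arrays limits the precision. Figures were drawn with matplotlib 3.10.9.

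The members, lists and tests were chosen with earlier results of these data known. Named by rule were members past the threshold, the 5 largest falls and rises without overlap, the largest difference and highest mean in each family, all Esrp and Rbfox genes, genes with probe sets of opposite sign and 1 difference over 0.5, and likewise up to 3 other splicing genes each way. Other genes, and the test between probe sets, were chosen after the values were seen.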

Additional observations from a re-analysis of the deposited data

How the results depend on the processing

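In all 17 alternatives chosen at the outset and without the third array of both groups, 0 of the members tested passed (58 without the dimmest 50% of probe sets, 61 otherwise); the smallest adjusted p ran from 0.0562 to 0.388. Their median difference was below 0 in each, from -0.24 to -0.024 when single arrays were left out. The count of other splicing genes, 0 in the report, is given here with the share of all genes that passed. It was 1 after quantile normalization (Scaf4, 1.27%) and 1 with each array centred on its median (Scaf4, 1.43%). Without the dimmest 30% and 50% of probe sets it was 3 and 6 (3.65% and 5.56%). It was 2 with the trend and robust settings (2.52%), and 0 to 2 when single arrays were left out (0% to 0.654%). Whether the shared replicate numbers of the groups mark pairs is not given by the titles. Deviations of same-numbered arrays correlated at 0.15, 0.020 and 0.075. ES replicates 1 and 3 correlated best with the fPS array of their own number, and ES replicate 2 with fPS replicate 3 (0.054). With the replicate number as a block, 0 members and 1 other splicing gene (Nsrp1) passed, beside 0.45% of all genes. Of 371 values of the named genes under alternatives, 346 kept sign and side of the threshold, 15 newly passed and 10 turned sign. The turned values were those of Srsf2 after quantile normalization (0.14) and as the mean over its probe sets (0.018), and those when single arrays were left out, where Srsf2 ran from -0.14 to 0.18, Prpf8 from -0.092 to 0.37, Esrp1 from -0.25 to 0.84 and Rbfox3 from -0.19 to 0.54. Centring on the median moved the median of all genes to -0.060. With 3 arrays a group, the 95% interval of 23 of the 61 members reached beyond a 2-fold change. The interval lay within that range for 8864 of all 14217 genes.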
